A study of Mus musculus with 2 samples.

Results

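Interferons are cytokines that warn cells of infection. Type I interferons bind a receptor built from the chains Ifnar1 and Ifnar2, and interferon gamma, the type II interferon, binds a receptor built from Ifngr1 and Ifngr2. Both receptors work through Janus kinases and STAT proteins, and the interferon regulatory factors (IRFs) are the transcription factors that act before, within and after this relay. Some IRFs switch on interferon genes once a cell senses foreign nucleic acid, and others carry the interferon signal to its target genes or restrain it. In regulatory T cells (Treg cells), the Foxp3-expressing T cells that restrain immune responses, IRFs and interferon signals are known to tune activation and specialisation.

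The genes described here are 6 IRFs (Irf1, Irf2, Irf3, Irf7, Irf8 and Irf9) and the 4 interferon receptor chains, taken by gene symbol. The choice was made with earlier results of these data known. All 10 were found, each as 1 row, among 46511 gene rows, and all 10 averaged 1 FPKM or more (a fragment count divided by transcript length and sequencing depth). Levels come from poly(A) RNA sequencing of effector Treg cells sorted as CD4+, CD25+, CD62L-low, CD44-high and positive for the green fluorescent protein reporter of Foxp3. Each genotype, Nrn1+/- and Nrn1-/-, has 1 library. The product of Nrn1 is neuritin, which is held on the outer face of the cell membrane. The mice of both groups were C57BL/6 and carried the Foxp3DTRgfp allele, which also makes Treg cells sensitive to diphtheria toxin. The control is titled wild type but its genotype is given as heterozygous, so every difference below sets null against heterozygous cells. The labels used here give no ages, no number of mice behind a library and no limit of the deletion to a cell type. With 1 library per genotype there is no check against the spread between mice and no p-value.

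Nrn1 itself was at 66.5 FPKM in Nrn1+/- cells and at 4.62 FPKM in Nrn1-/- cells, 14.4-fold lower. The Treg markers Foxp3 (257 and 195 FPKM), Il2ra (601 and 564 FPKM) and Ctla4 (491 and 389 FPKM) were high in both libraries. Of 8 Treg markers 7 were lower in Nrn1-/- cells and Cd44 was higher, their sum going from 2432 to 2099 FPKM, and log2 ratios of -0.40 for Foxp3, -0.41 for Ikzf2 and -0.33 for Ctla4 lay near or below the median of the 10 genes given next. The part of this in the results was not tested. From the spacing of low values, a single fragment on 1 kb counted for 0.019 FPKM in Nrn1+/- cells and 0.0249 FPKM in Nrn1-/- cells. From these steps and each gene's shortest annotated coding transcript, the 10 genes rested on at least 165 fragments in each library, a low estimate where longer transcripts are annotated. The 95% intervals given with folds are exact binomial intervals on these fragments. They cover counting error only, since each genotype has 1 library. No molecular identifiers tell copies of the same molecule apart, so the intervals may be too narrow even for that.

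Of the 10 genes, 9 were lower in the Nrn1-/- library and 1, Irf8, was higher. Among the 10695 protein-coding genes that averaged 1 FPKM or more, 45.7% were lower. At least 1.5-fold lower were 3 of the 10, Ifngr1, Irf7 and Irf9, against 3.69% of the protein-coding genes. Irf8 alone was at least 1.5-fold higher, against 7.01%. These thresholds apply to the log2 ratio of the Nrn1-/- to the Nrn1+/- value after adding 1 FPKM to each. The median log2 ratio was -0.32 for the 10 genes and 0.035 for all protein-coding genes tested. In whole-population RNA, fewer cells of one kind and less RNA per cell cannot be told apart.

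**Figure D1:**
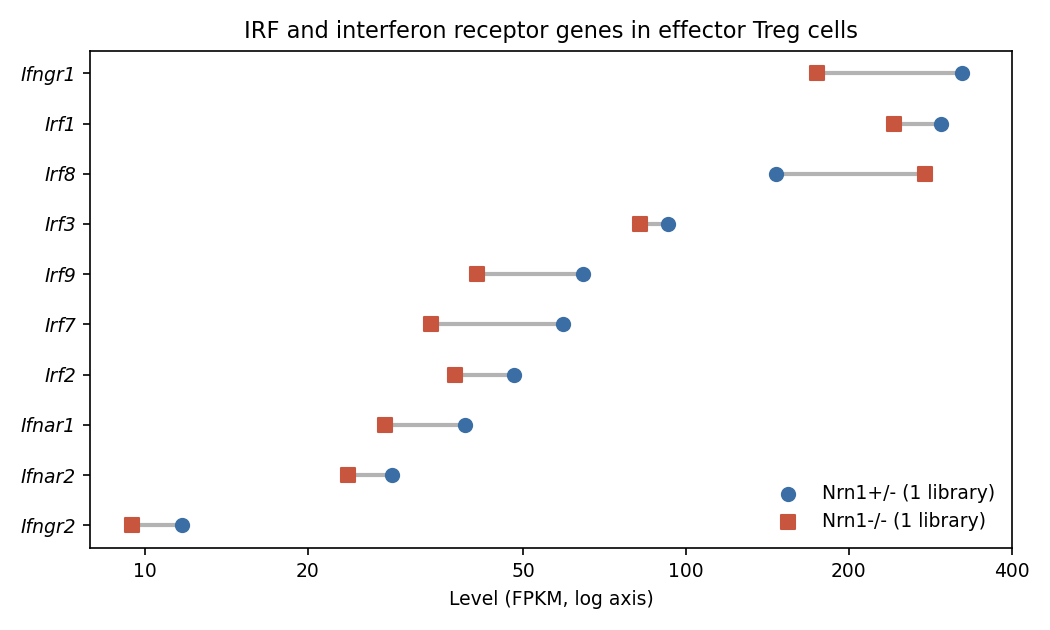
Level of each gene in FPKM on a log axis, with 1 circle for the Nrn1+/- library, 1 square for the Nrn1-/- library and a grey line joining them. The square lies left of the circle for 9 genes and right of it for Irf8, at 147 and 276 FPKM.

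The balance of all genes depends on how the libraries are scaled to each other, which no label states. As deposited, 395 protein-coding genes were at least 1.5-fold lower and 750 higher. The split was 542 to 583 after upper-quartile scaling, 489 to 643 after centring on the median gene, and 1686 to 283 with both libraries set to the same sum of 1000000. That last scaling moved the median gene by -0.27 on the log2 scale. The sum over all rows, which sets it, was 645876 FPKM in the Nrn1+/- and 790935 FPKM in the Nrn1-/- library. Over protein-coding rows alone the sums were closer, at 593035 and 647545 FPKM. Under all 3 scalings, the 9 lower genes were still lower and Irf8 still higher.

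**Figure D2:**
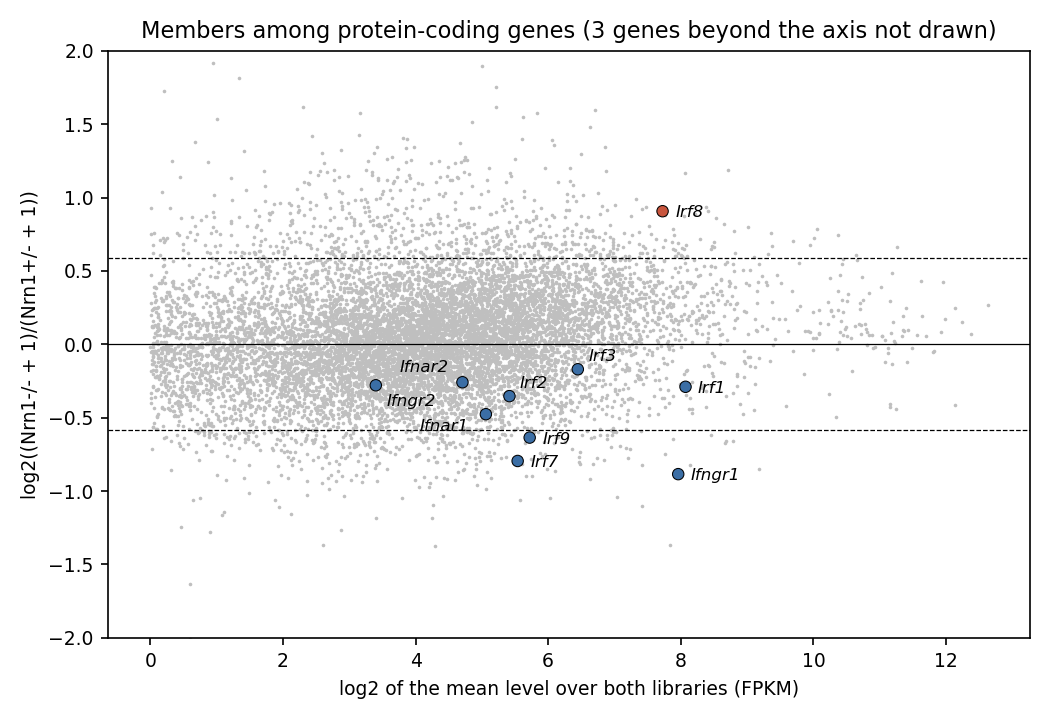
Log2 ratio against the log2 of the mean level for the protein-coding genes tested (grey), with the 10 genes marked and dashed lines at 1.5-fold. Irf8 lies above the upper line at 0.91, and Irf9, Irf7 and Ifngr1 lie below the lower line at -0.64, -0.79 and -0.88.

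Promoter sequence was examined because interferon signals reach several of these genes through short DNA motifs. The gamma-activated site (TTCNNNGAA, the STAT motif, identical on both strands) and the core of the interferon-stimulated response element (GAAANNGAA, searched on both strands, which IRFs bind, Irf9 among them) were sought from 250 bases before to 50 bases after each RefSeq start on GRCm38.p6. The windows of 5 of the 10 genes held a gamma-activated site, against 9.55% of 27025 genes with a window. These were Irf1, Irf2, Irf8, Ifnar1 and Ifnar2. Irf2 was the single gene of the 10 with a response element core, which 9.76% of all genes held. Both motifs can share bases, but no match did so in these 5 genes. The sequences with a match are shown 5′ to 3′ on the plus strand, which is the coding strand of all 5, with motif matches in capitals. They are the 250 bases before the start for the 3 IRFs and 30 bases round the match for the receptor chains.
Irf1, chr11:53769764-53770013: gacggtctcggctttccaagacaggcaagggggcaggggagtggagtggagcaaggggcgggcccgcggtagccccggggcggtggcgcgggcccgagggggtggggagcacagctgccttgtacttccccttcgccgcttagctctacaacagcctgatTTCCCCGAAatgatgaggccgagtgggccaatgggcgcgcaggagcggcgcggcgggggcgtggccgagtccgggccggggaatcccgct
Irf2, chr8:46739495-46739744: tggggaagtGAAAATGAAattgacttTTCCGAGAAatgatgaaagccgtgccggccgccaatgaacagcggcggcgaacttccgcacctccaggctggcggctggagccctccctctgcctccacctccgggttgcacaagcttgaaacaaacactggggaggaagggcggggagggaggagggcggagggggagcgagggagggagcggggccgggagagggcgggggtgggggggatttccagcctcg
Irf8, chr8:120736108-120736357: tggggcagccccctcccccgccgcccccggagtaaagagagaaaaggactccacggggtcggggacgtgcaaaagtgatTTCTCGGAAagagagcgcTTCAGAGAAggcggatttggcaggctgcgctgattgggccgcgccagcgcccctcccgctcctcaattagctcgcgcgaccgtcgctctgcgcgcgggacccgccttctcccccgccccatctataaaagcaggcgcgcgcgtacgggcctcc
Ifnar1, chr16:91485200-91485229: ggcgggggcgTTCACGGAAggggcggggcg
Ifnar2, chr16:91372559-91372588: tgccaaggccTTCCTGGAAgaagagagtac

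Counted from the RefSeq start, the gamma-activated site begins at -90 in Irf1, at -224 in Irf2 and at -171 and -153 in Irf8. It begins at -214 in Ifnar2 and at -5 in Ifnar1, where it runs across the RefSeq start. The gene position given below for Ifnar1 comes from another annotation and begins at 91485238, after this site. Irf8, which was higher in Nrn1-/- cells, thus carries the same motif as Irf1, Irf2, Ifnar1 and Ifnar2, which were lower. The genes with the largest negative ratios, Ifngr1, Irf7 and Irf9, had no match to either motif in their windows, which says only that these letters are not in those windows.

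All 4 receptor chains were lower in Nrn1-/- cells, and their median log2 ratio was -0.38. Ifngr1, the chain that binds interferon gamma and docks Jak1, was at 323 FPKM in Nrn1+/- cells, the highest of the 10 genes, and at 175 FPKM in Nrn1-/- cells. That is 1.85-fold lower (1.81 to 1.89), a log2 ratio of -0.88, and the 63rd lowest ratio of all 10695 genes. The gene (ENSMUSG00000020009.11, GRCm38 chromosome 10, 19591949 to 19610229, plus strand) overlaps no other annotated gene.

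Ifngr2, the second chain of the same receptor and the one that brings Jak2, was the lowest of the 10 at 11.7 and 9.45 FPKM, 1.24-fold lower (1.15 to 1.32). The receptor's chains therefore differed unequally. Ifngr1 stood 27.7 times above Ifngr2 per length of transcript in Nrn1+/- cells and 18.5 times above it in Nrn1-/- cells, a comparison within each library that no scaling between libraries can move.

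Ifnar1, the type I chain that docks Tyk2, was at 39.0 and 27.8 FPKM, 1.41-fold lower (1.19 to 1.66). Ifnar2, the chain that docks Jak1, was at 28.6 and 23.7 FPKM, 1.20-fold lower, with an interval of 0.985 to 1.48. That width follows from the 384 bases of its shortest coding transcript. At the 3047 bases of the longest the interval was 1.15 to 1.26. The type I chains were thus closer to each other than the type II chains, with Ifnar1 at 1.37 times Ifnar2 in one library and 1.17 times in the other.

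Ifnar2, Ifnar1 and Ifngr2 lie in 1 cluster on GRCm38 chromosome 16, from 91372783 to 91565623, together with Il10rb, a chain shared by the receptors of interleukin 10 and lambda interferons. All 4 lie on the plus strand, Ifnar2 (ENSMUSG00000022971.17) first, then Il10rb, Ifnar1 (ENSMUSG00000022967.11, 91485238 to 91507441) and Ifngr2 (ENSMUSG00000022965.7, 91547072 to 91565623). Il10rb was at 38.4 and 27.9 FPKM with a log2 ratio of -0.45. Of its neighbours in the cluster, Ifnar2, 575 bases away, had -0.26 and Ifnar1, 59404 bases away, had -0.48. The next coding gene beyond Ifngr2, Tmem50b, was at 11.4 and 11.5 FPKM. A gene model spanning parts of Ifnar2 and Il10rb, Gm21970, shares 315 exon bases with Ifnar2 and was listed at 0.0903 and 0 FPKM.

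Irf9 is the DNA-binding part of the STAT complex that forms after type I interferon, in which Stat2 is its partner. It was at 64.4 FPKM in Nrn1+/- cells and 41.1 FPKM in Nrn1-/- cells, 1.57-fold lower (1.44 to 1.71) with a log2 ratio of -0.64. Stat2 was lower as well, at 38.1 and 25.2 FPKM, and kept nearly the same proportion to Irf9, 0.591 and 0.612. Irf9 (ENSMUSG00000002325.13, chromosome 14, 55603571 to 55610030, plus strand) shares 123 exon bases with Rnf31, a ubiquitin ligase gene on the same strand, and reads there cannot be assigned to one gene. Rnf31 was at 42.1 and 33.9 FPKM.

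Irf3 and Irf7 are the factors that induce type I interferon genes when nucleic acid is sensed. Irf3 is made constantly, and Irf7 is itself an interferon-induced gene. Irf3 was at 92.4 and 82.0 FPKM, 1.13-fold lower (1.01 to 1.26), the smallest difference among the 10. Irf7 was at 59.3 and 33.7 FPKM, 1.76-fold lower (1.61 to 1.92), with a log2 ratio of -0.79 that was the 101st lowest of 10695. Irf7 stood at 0.642 of Irf3 in Nrn1+/- cells and at 0.411 in Nrn1-/- cells.

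Both genes have an overlapping neighbour on the other strand. Irf7 (ENSMUSG00000025498.13, chromosome 7, 141262706 to 141266481, minus strand) shares 45 exon bases with Phrf1, at 41.7 and 44.8 FPKM. Irf3 (ENSMUSG00000003184.13, chromosome 7, 44997648 to 45002848, plus strand) shares 88 with Bcl2l12, at 16.5 and 19.1 FPKM. No label states whether the counting used strand, so reads in the shared bases cannot be told apart. Both neighbours were higher in Nrn1-/- cells as deposited, while Irf7 and Irf3 were lower.

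Irf1 and Irf2 are a related pair, the first an activator induced by interferon gamma and the second a factor that competes for the same sites. Irf1 was at 296 and 242 FPKM, 1.22-fold lower (1.17 to 1.28), and Irf2 at 48.0 and 37.4 FPKM, 1.28-fold lower (1.08 to 1.53). Irf2 (ENSMUSG00000031627.7) lies on chromosome 8, 46739732 to 46847458, plus strand. The pair kept close to the same proportion, with Irf1 at 6.16 and 6.47 times Irf2. Irf1 (ENSMUSG00000018899.15, chromosome 11, 53770014 to 53778374, plus strand) shares 135 exon bases with the opposite-strand model Gm17334, listed at 9.16 and 7.74 FPKM. Gm12216, the next coding gene model 5044 bases beyond Irf1, was at 35.5 and 22.4 FPKM.

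Irf8, known for directing the development of dendritic cells, B cells and monocytes and also made by activated T cells, went the other way. It was at 147 FPKM in Nrn1+/- cells and 276 FPKM in Nrn1-/- cells, 1.88-fold higher (1.78 to 1.99), a log2 ratio of 0.91 and the 195th highest of 10695. The gene lies on GRCm38 chromosome 8, 120736358 to 120756694, plus strand (ENSMUSG00000041515.8). An overlapping coding model, Gm20388, shares no exon bases with it and was listed at 0.0016 and 0.0058 FPKM. Cox4i1, the next coding gene before it, was at 510 and 620 FPKM.

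The order of the 10 genes by level differed between the libraries at the top. In Nrn1+/- cells it ran Ifngr1, Irf1, Irf8, and in Nrn1-/- cells Irf8, Irf1, Ifngr1. Irf3 and Irf9 followed in both, and Ifnar1, Ifnar2 and Ifngr2 the last 3. The remaining pair, Irf7 and Irf2, changed places, at 59.3 and 48.0 FPKM against 33.7 and 37.4 FPKM. No replicate spread is available to say which neighbours in these orders differ.

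**Figure D3:**
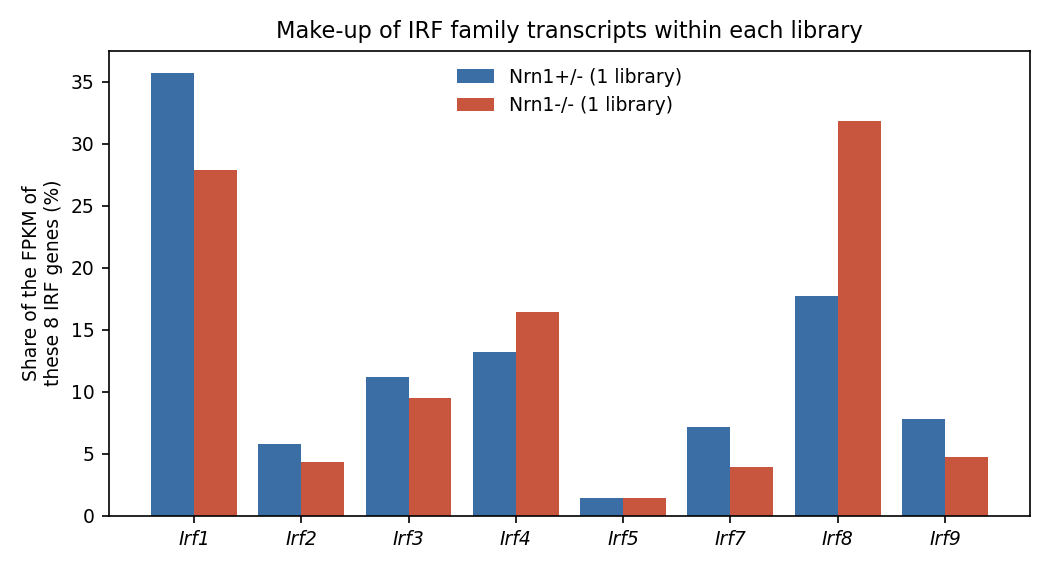
Share of each IRF gene in the summed FPKM of the 8 IRF genes drawn, in percent, for the Nrn1+/- (blue) and Nrn1-/- (red) library. Irf8 has 17.7% and 31.8%, Irf1 35.7% and 27.9%, and Irf4 13.2% and 16.4%.

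Within a library the shares of IRF genes do not depend on scaling. The 6 IRFs with Irf4 and Irf5 summed to 828 FPKM in Nrn1+/- cells and 867 FPKM in Nrn1-/- cells. Irf8 took 17.7% and 31.8% of these sums, and Irf1 35.7% and 27.9%, so that Irf8 went from 0.496 to 1.14 times Irf1. Irf4, a factor of effector Treg cells that can pair with the same DNA-binding partners as Irf8, was at 110 and 142 FPKM, and Irf8 went from 1.34 to 1.94 times Irf4. Irf7 took 7.16% and 3.89%, and Irf9 7.77% and 4.74%.

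Irf8 is abundant in B cells and dendritic cells, so their markers were read beside it. Of 10 B cell markers 9 were higher in Nrn1-/- cells, and their summed level went from 7.55 to 10.4 FPKM, of which Cd79b alone gave 4.85 and 5.14 FPKM. Cd79b was lower at a sum of 1000000, with a log2 ratio of -0.18. Of 13 markers of conventional dendritic cells and macrophages 8 were lower and 4 higher, summing to 13.3 and 10.5 FPKM, with Clec9a at 0 in both libraries and Itgax at 0.05 and 0.12 FPKM. Of 8 markers of plasmacytoid dendritic cells 3 were higher and 3 lower, the other 2, Siglech and Klk1, being at 0 in both. They summed to 30.8 and 23.6 FPKM, mostly Pacsin1 at 24.8 and 16.8 FPKM. The difference in Irf8 was 129 FPKM, and the part of such cells in it was not tested. Of 7 markers of CD8 T and NK cells 4 were higher, summing to 93.4 and 126 FPKM, nearly all of it Nkg7 at 81.5 and 115 FPKM.

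The 5 protein-coding genes nearest to Irf8 in level and ratio were Hmgn2 (152 and 281 FPKM), C1qbp (164 and 269 FPKM), Nudc (148 and 245 FPKM), Nhp2 (165 and 261 FPKM) and Ccl3 (151 and 236 FPKM). Nearness was the distance between log2(FPKM + 1) values over the 2 libraries, from 0.06 for Hmgn2 to 0.23 for Ccl3. With only 2 libraries it means like levels and nothing more.

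**Figure D4:**
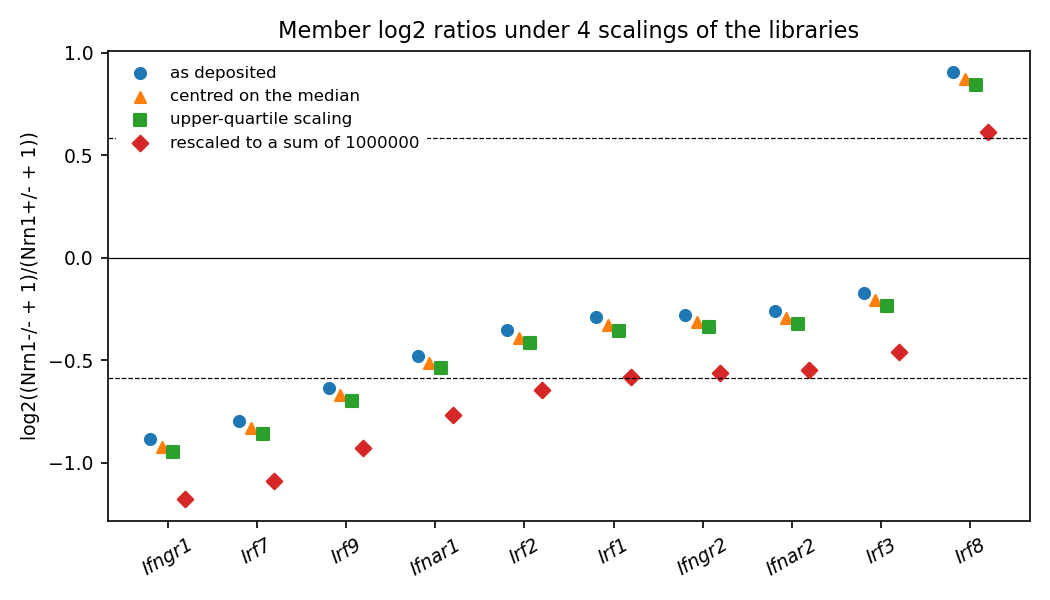
Log2 ratio of each gene as deposited, centred on the median gene, after upper-quartile scaling and after rescaling to a sum of 1000000, with dashed lines at 1.5-fold. The last scaling lies lowest for every gene, at 0.62 for Irf8 and -1.18 for Ifngr1, and no gene crosses 0.

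Genes before and after these factors in the pathway were read from lists in the order ligand, relay, sensor, restraint and target. Ligands other than Ifng were near or at 0. Of 21 interferon genes 17 were listed at 0 in both libraries, and Ifnab, Ifnz and Ifnl2 did not exceed 0.05 FPKM. Ifng, the ligand of the Ifngr1 and Ifngr2 receptor, was at 27.7 and 54.9 FPKM, 1.98-fold higher in Nrn1-/- cells, where both chains of its receptor were lower.

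In the relay, 4 of the 5 receptor kinases and STATs were lower, against 45.7% of all protein-coding genes, with a median of -0.29. None passed 1.5-fold after 1 FPKM was added, though Stat2, at a log2 ratio of -0.58, was 1.51-fold lower without it and passed with either smaller pseudocount and under the 3 other scalings. Jak1, which serves both receptors, was at 103 and 80.0 FPKM. Tyk2, the partner of Ifnar1, was at 22.2 and 19.6 FPKM. Jak2, the partner of Ifngr2, was at 45.0 and 49.5 FPKM with a log2 ratio of 0.13 that turned to -0.15 at a sum of 1000000.

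Sensors, adaptors and kinases that act before Irf3 and Irf7 were split, with 10 of 16 lower and a median of -0.13. Over all protein-coding genes 45.7% were lower and 3.69% at least 1.5-fold lower. Beyond 1.5-fold lower were Tlr7, an endosomal receptor for RNA (4.68 and 2.48 FPKM), and Ddx58, the cytosolic RNA sensor RIG-I (21.4 and 13.1 FPKM). The most abundant were Zbp1, a nucleic acid sensor itself induced by interferon (150 and 101 FPKM), and Tmem173, the adaptor STING (91.9 and 107 FPKM), whose log2 ratio went from 0.21 to -0.08 at a sum of 1000000. Ikbke and Tbk1, the kinases that phosphorylate Irf3 and Irf7, were at 83.9 and 61.9 FPKM and at 27.6 and 23.6 FPKM.

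Restraints on interferon signalling were split, with 7 of 11 lower and 4 higher and a median of -0.06. Over all protein-coding genes 45.7% were lower and 7.01% at least 1.5-fold higher. Ptpn6, the phosphatase SHP-1, was higher, at 74.7 and 113 FPKM, and the only one past 1.5-fold as deposited. Its log2 ratio of 0.59 became 0.55 after centring, 0.52 with equal upper quartiles and 0.30 with equal sums, all short of 1.5-fold. Socs1, which inhibits Janus kinases, was at 203 and 210 FPKM, a log2 ratio of 0.05 that became -0.02 once upper quartiles were equal and -0.24 once sums were equal, and Cish was at 193 and 186 FPKM. Usp18, which blocks Ifnar2 and is induced by interferon, was at 26.0 and 17.7 FPKM, a log2 ratio of -0.53 that passed 1.5-fold lower with equal upper quartiles, at -0.59.

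Target genes were mostly lower. Of 26 type I response genes that averaged 1 FPKM or more, 24 were lower and 10 at least 1.5-fold lower, against the 45.7% and 3.69% of all protein-coding genes given above. Their median log2 ratio was -0.50. The largest ratios belonged to Ifit3 (44.9 and 22.2 FPKM), Ifit3b, Oasl2, Ifit1, Rtp4 (32.5 and 17.4 FPKM) and Samd9l (34.3 and 18.6 FPKM), all antiviral or interferon-induced genes. The most abundant were Ifi27l2a at 506 and 319 FPKM and Bst2, the membrane tether tetherin, which was higher at 163 and 204 FPKM. The other gene not lower as deposited was Trim25, at 18.6 and 19.8 FPKM, whose log2 ratio of 0.08 turned to -0.20 at a sum of 1000000.

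Of 22 genes of the interferon gamma and Irf1 response, 21 were lower and 6 at least 1.5-fold lower, with a median of -0.39. The shares over all protein-coding genes were 45.7% and 3.69%. All 6 were guanylate-binding protein genes, GTPases induced by interferon gamma. They were Gbp9 (49.7 and 28.6 FPKM), Gbp7 (112 and 66.6 FPKM), Gbp8, Gbp3 (154 and 94.4 FPKM), Gbp2 (542 and 344 FPKM) and Gbp5. By the mean of both libraries, the most abundant genes of the list were B2m, the light chain of MHC class I, at 2586 and 1946 FPKM, and Psmb8, an immunoproteasome subunit, at 506 and 490 FPKM. Psmb9, a further immunoproteasome subunit at 190 and 210 FPKM, was the 1 gene not lower as deposited, and its log2 ratio of 0.14 turned to -0.15 at a sum of 1000000.

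The response element core stood in the promoter windows of 15 of the 24 type I response genes with a window and of 11 of the 16 gamma response genes, against 9.76% of all genes and 1 of the 10 genes described here. The gamma-activated site stood in 7 of those 24, in 5 of those 16 and in 5 of the 10.

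**Figure D5:**
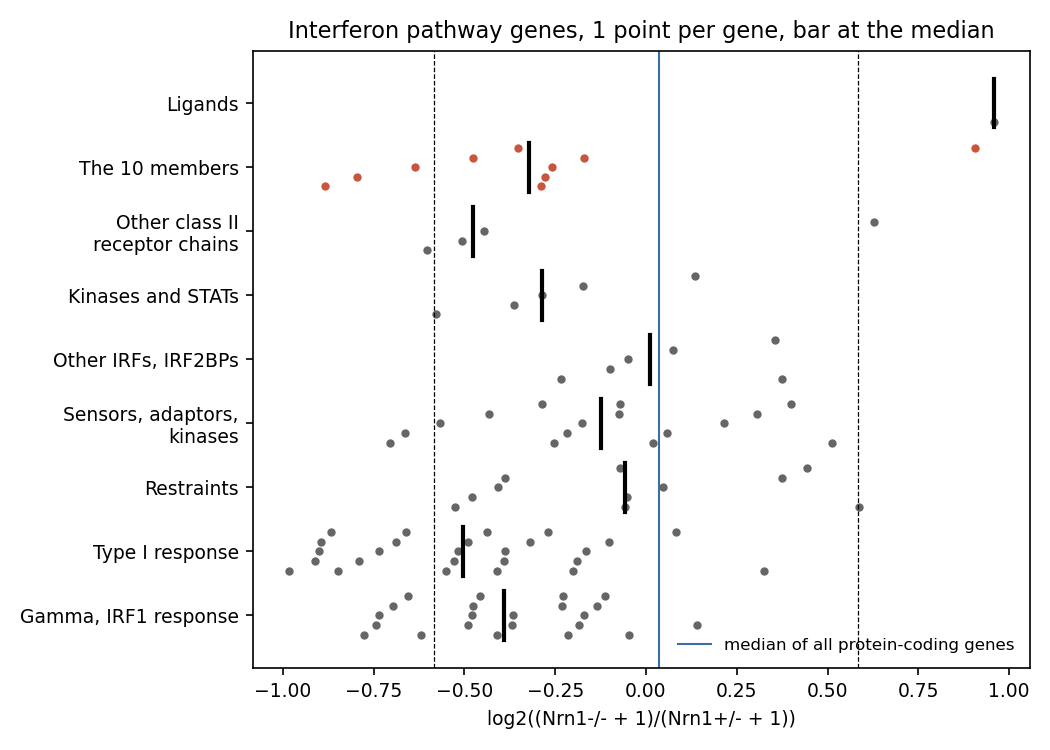
Log2 ratio of each pathway gene with a mean of at least 1 FPKM, 1 point per gene, with a black bar at each list's median, a blue line at the median of all protein-coding genes (0.035) and dashed lines at 1.5-fold. The type I list has its bar at -0.50, the gamma list at -0.39 and the 10 genes (red) at -0.32, with Irf8 and Ifng far to the right at 0.91 and 0.96.

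Relatives outside the 10 genes were less uniform. Of the other IRFs and the IRF2-binding proteins, 3 were lower and 3 higher, none past 1.5-fold, with a median of 0.012. Irf4 had a log2 ratio of 0.38, and Irf5 was at 12.0 and 12.7 FPKM. Irf2bp2, a corepressor of Irf2, was at 21.9 and 20.4 FPKM, and Irf2bp1 at 15.5 and 20.2 FPKM. Irf5 had a ratio of 0.07 that became -0.20 at a sum of 1000000.

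Among other class II cytokine receptor chains, the structural family of the interferon receptors, 3 of the 4 that averaged 1 FPKM or more were lower. The share over all protein-coding genes was 45.7%. Il10ra, the chain that binds interleukin 10, was at 31.5 and 20.4 FPKM, a log2 ratio of -0.60. F3, tissue factor, was at 1.70 and 3.17 FPKM. Ifnlr1, the chain specific to lambda interferons, was at 0.01 FPKM in both.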

How the data were processed

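Poly(A) RNA libraries of sorted effector Treg cells, 1 per genotype, were grouped by their genotype labels. The deposited values are FPKM made by the authors. The headers name no unit, which was taken from the values and from the tools. The submitters' processing notes name Cuffnorm, TopHat, Cuffdiff, FastQC and the builds mm10 and GRCm38, without version or role. No source used here states the annotation release or how libraries were scaled. Where a symbol had several rows (82 symbols), their values were added. Positions came from GENCODE M21, to which 46000 of 46511 identifiers matched. Ratios are the log2 of the Nrn1-/- over the Nrn1+/- value, each after a pseudocount of 1 FPKM, which understates differences of low genes. Genes averaging 1 FPKM or more were compared, and no test was possible. The ratio calculation was tested on simulated ratios without counting noise, which checks the arithmetic only.

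The value of 1 fragment was fitted to low values of genes with a single transcript, as the step with the most regular spacing. Within 0.1 of whole multiples then lay 91.5% of 482 genes for Nrn1+/- cells and 92.0% of 424 for Nrn1-/- cells. Chance gives 20.0% for a step not fitted to these values, so the comparison favours the fitted step. Fragment numbers are estimates, since lengths are annotated ones.

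The members and gene lists were chosen with earlier results of these data known. Named are all members, Nrn1, overlapping and neighbouring genes, the 5 genes nearest to the member with the largest ratio, and from each list the genes past 1.5-fold (up to 6 by size) and the 2 most abundant, except items not reported here. Others (Tyk2, Jak2, Stat2, Tbk1, Ikbke, Usp18, Psmb9, Trim25, Irf5, Irf2bp1, Ifnlr1, Ifnab, Ifnz, Ifnl2 and the cell type markers) were added after their values were seen. Alternatives were pseudocounts of 0.1 and 0.5 FPKM, 3 scalings, 2 filters, all gene classes as background, the highest row per symbol and thresholds at which the higher value is 25% above the lower, or 2-fold. Intervals with the longest coding transcript were added after seeing the data. Python 3.11.15, pandas 2.3.3 and scipy 1.17.1 were used.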

Additional observations from a re-analysis of the deposited data

How the results depend on the processing

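All 10 genes kept the sign of their log2 ratio under both other pseudocounts and all 3 other scalings. A pseudocount cannot change a sign, and the 3 scalings lowered all 10 ratios, so only Irf8 could have changed sign. Irf8 lay between 0.62 and 0.91, Ifngr1 between -1.18 and -0.88 and Irf3 between -0.46 and -0.17. At a sum of 1000000 the median of the 10 became -0.61 and 5 were at least 1.5-fold lower, Irf2 and Ifnar1 joining Ifngr1, Irf7 and Irf9, but 15.3% of all protein-coding genes were then as low. As deposited, 19 of the 91 listed pathway genes that averaged 1 FPKM or more were at least 1.5-fold lower, with a median of -0.29. The share over all protein-coding genes was 3.69%. Pseudocounts of 0.1 and 0.5 FPKM each gave 24 pathway genes, against 5.58% and 4.64% of all protein-coding genes. At a sum of 1000000 there were 47, with a median of -0.59, against the 15.3% of all protein-coding genes. The filter was applied again after rescaling, so the number of genes compared can differ there. A looser threshold needed the Nrn1+/- value to be only 25% above the Nrn1-/- value. It was passed by 5 of the 10 genes, 44 of the 91 pathway genes and 14.5% of all protein-coding genes. With 2-fold after 1 FPKM was added, 0 of the 10 were lower, 0 higher and 0 pathway genes lower, against 0.262% lower and 1.21% higher of all. Without the added 1 FPKM, Ifit3 was 2.02-fold and Ifit3b 2.21-fold lower. With no filter on low values the median of the interferon ligands turned to -0.029, since the 3 genes added to Ifng there are close to 0. The cause of the other shifts was not tested beyond what each setting does by construction. No paired analysis was possible because each genotype has 1 library, and no library could be left out. The counting intervals depend on the transcript length assumed. With the longest coding transcript, an alternative chosen after seeing the data, that of Ifnar2 was 1.15 to 1.26 in place of 0.985 to 1.48.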
